A study of Mus musculus with 6 samples.

Results

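The 10 circadian clock genes Per1, Per2, Per3, Cry1, Cry2, Arntl, Clock, Nr1d1, Nr1d2 and Dbp were taken by name from the 24956 genes of an RNA-seq table of mouse intestinal organoids, and all 10 were found there. The organoids, which are closed epithelial cultures grown in organoid medium, carried the Apc Min genotype in every sample. Apc Min is a nonsense mutation in Apc, the gene of a protein that restrains Wnt signalling. The 3 control samples received a control treatment and the other 3 samples received DM-aKG, a cell-permeable dimethyl ester of α-ketoglutarate, an intermediate of the TCA cycle. The labels give neither the dose and duration of DM-aKG nor the content of the control treatment. They also do not give the hour of collection or any step that set the cultures to a common circadian phase. The replicates are described as biological, without a statement on separate mice or cultures, so the p-values measure the spread between these samples. The title of the series names Wnt signalling and differentiation as its subject; the clock genes were read from the same libraries.

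The circadian clock is a loop of transcription factors that runs in most cells. CLOCK and BMAL1, the product of Arntl, bind E-box sequences and activate the Per and Cry genes, whose proteins return to the nucleus and inhibit them. The same pair activates Nr1d1 and Nr1d2, which encode the nuclear receptors REV-ERBα and REV-ERBβ; these repress Arntl. Dbp, an output of the pair, encodes an activator that binds D-box sequences, as do its relatives TEF and HLF. In the intestine, clock genes cycle in epithelial cells and feeding time can set their phase. A culture collected at a single hour shows a state of this loop, not a rhythm.

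The unit, RPKM, counts reads per kilobase of a gene and per 10⁶ reads of its library, so levels can be compared between genes. Estimated depth was 32.7 to 34.3 × 10⁶ reads per library. At that depth, and with exon lengths from GENCODE, the lowest library of each clock gene held from 168 reads (Dbp) to 3736 (Clock), a counting error of 7.72% and 1.64%. Epithelial markers were abundant, with the summed level of 9 of them at 3436 to 3486 RPKM in control and 4267 to 5141 in DM-aKG. The sum of 11 fibroblast and muscle markers was 0.64 to 0.81 RPKM in control and 1.1 to 1.58 in DM-aKG, that of 10 immune markers 1.85 to 2.01 and 2.29 to 3.57, and that of 8 endothelial and glial markers 0.62 to 0.76 and 1.3 to 1.44. These low sums were thus higher in the treated libraries without overlap. Col3a1, Dcn, Lum, Cd3g, Nkg7, Cdh5 and Kdr were listed at 0 in all 6 libraries. Some of the epithelial markers moved with the treatment: Krt8, Krt18, Krt19, Cdh1 and Vil1 were called higher and Epcam and Cdx2 lower, and the part of these shifts and of the sums above in the clock gene values was not tested. In these bulk samples fewer cells of a type and less RNA per cell cannot be told apart.

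Promoter windows in the RefSeq table of GRCm38.p6, 250 bases before to 50 after a start site, were found for 9 of the 10 genes; none was found for Per2. Each window was searched on both strands for the E-box CACGTG, its variant CACGTT, the D-box TTANGTAA, the nuclear receptor half-site AGGTCA, which REV-ERB proteins can bind, and the half-site TGACG, which CREB can bind. The 5 windows below are shown because their genes lie on different arms of the loop and differ in how they changed. They are written 5′ to 3′ along the gene, with matches in capitals, and positions are counted from the start site. Per3 is at chr4:151044616-151044915 (minus strand), Nr1d2 at chr14:18239057-18239356 (minus strand), Arntl at chr7:113207261-113207560 (plus strand), Per1 at chr11:69098699-69098998 (plus strand) and Cry1 at chr10:85185005-85185304 (minus strand).
Per3: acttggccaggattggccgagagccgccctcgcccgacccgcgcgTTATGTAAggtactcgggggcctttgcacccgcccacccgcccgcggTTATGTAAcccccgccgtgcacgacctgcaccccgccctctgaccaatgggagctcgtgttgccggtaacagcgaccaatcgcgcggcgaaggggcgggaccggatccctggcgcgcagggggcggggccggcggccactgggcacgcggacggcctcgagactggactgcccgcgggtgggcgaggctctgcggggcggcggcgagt
Nr1d2: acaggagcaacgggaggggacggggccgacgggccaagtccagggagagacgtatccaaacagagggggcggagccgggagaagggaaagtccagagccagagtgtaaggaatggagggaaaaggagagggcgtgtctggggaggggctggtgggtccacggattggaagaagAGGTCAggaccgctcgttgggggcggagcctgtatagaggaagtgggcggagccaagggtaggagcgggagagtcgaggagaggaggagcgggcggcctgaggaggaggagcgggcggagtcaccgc
Arntl: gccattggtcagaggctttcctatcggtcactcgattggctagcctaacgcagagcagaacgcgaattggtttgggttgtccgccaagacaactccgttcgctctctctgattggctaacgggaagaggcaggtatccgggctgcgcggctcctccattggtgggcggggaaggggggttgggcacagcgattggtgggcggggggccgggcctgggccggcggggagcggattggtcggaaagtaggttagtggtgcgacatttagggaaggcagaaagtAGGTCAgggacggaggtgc
Per1: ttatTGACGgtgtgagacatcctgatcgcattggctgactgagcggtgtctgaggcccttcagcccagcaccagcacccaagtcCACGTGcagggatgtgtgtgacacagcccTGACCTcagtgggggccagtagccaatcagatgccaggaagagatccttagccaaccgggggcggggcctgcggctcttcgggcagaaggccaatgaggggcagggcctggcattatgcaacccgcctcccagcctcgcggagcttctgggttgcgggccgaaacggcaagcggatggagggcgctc
Cry1: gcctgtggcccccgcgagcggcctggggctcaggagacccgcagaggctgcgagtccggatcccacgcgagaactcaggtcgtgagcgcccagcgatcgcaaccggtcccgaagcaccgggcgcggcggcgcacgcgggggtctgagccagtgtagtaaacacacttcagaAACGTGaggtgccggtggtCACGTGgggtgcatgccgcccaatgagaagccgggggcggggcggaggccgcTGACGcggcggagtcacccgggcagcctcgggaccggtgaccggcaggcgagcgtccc

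The Per3 window holds 2 D-boxes, beginning at -205 and -158, and a D-box was found in 2.32% of the 32851 windows of the table. The half-site AGGTCA begins at -77 in the window of Nr1d2 and at 32 after the start in the shown window of Arntl, which has 2 windows; 16.3% of all windows hold this half-site. The shown window of Per1, also with 2 windows, holds an E-box at -166, an AGGTCA at -137 and a TGACG at -246. Cry1 holds an E-box at -60, its variant at -79 and a TGACG at -8; the shares of all windows are 7.15% for the E-box, 4.68% for the variant and 20.8% for TGACG. Of the windows not shown, the other of Arntl holds none of the 5 motifs and the other of Per1 only a TGACG at -132. Both genes are thus shown by their window with more matches. That of Nr1d1 holds the variant E-box at -28, that of Cry2 the variant at -166 and a TGACG at -209, and that of Dbp none of the 5 motifs. Clock has 3 windows, in which the only match is an AGGTCA at -119. These are matches of letters in a short window, and distal elements lie outside it.

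DM-aKG was accompanied by lower levels of Dbp, Nr1d2, Per2 and Per3 and by smaller rises of Per1 and Arntl. Dbp fell from 4.36 ± 0.357 to 2.12 ± 0.415 RPKM (group mean ± SD of 3 libraries, here and below) and Nr1d2 from 7.30 ± 0.431 to 3.94 ± 0.121 RPKM. Cry1, Cry2, Clock and Nr1d1 did not pass the test. By limma on log2(RPKM + 0.5), with Benjamini-Hochberg adjustment over the 10852 genes tested and a threshold of 0.05, 2 of the 10 clock genes were called higher and 4 lower. Together these are 60.0% of the clock genes, beside 55.6% of all tested genes (30.9% called higher and 24.7% called lower), so the number of called clock genes was close to the background. The 2 groups of libraries did not overlap for 7 of the 10 (70.0%), beside 64.2% of all tested genes. The median log2 fold change was -0.08 over the clock genes and 0.02 over all tested genes. Under median centring the calls over all genes turned from 3354 higher and 2679 lower to 2790 higher and 3340 lower, while the 4 falls among the clock genes were called under each scaling tried.

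**Figure D1:**
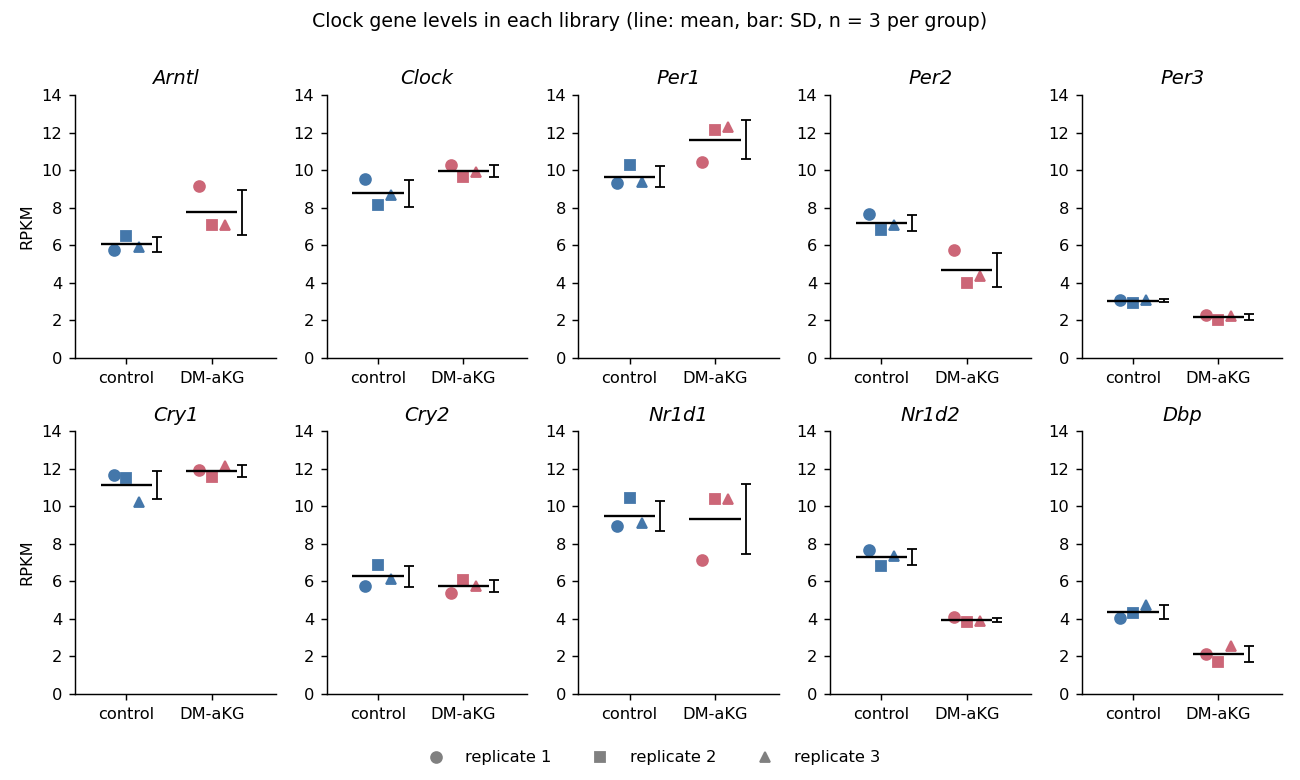
Level of each clock gene in RPKM (vertical axis, from 0) in the 3 control and the 3 DM-aKG libraries; symbols mark replicates, lines the mean and bars the SD. All 3 DM-aKG libraries lie below all 3 controls for Per2, Per3, Nr1d2 and Dbp, and the groups overlap for Cry1, Cry2 and Nr1d1.

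Of the activating pair, Arntl rose and Clock did not pass the test. Arntl, the gene of BMAL1, stood at 5.74, 6.51 and 5.93 RPKM in control replicates 1 to 3 and at 9.15, 7.08 and 7.08 in DM-aKG replicates 1 to 3. Every DM-aKG library was above every control, and replicate 1 stood apart from the other two treated libraries. Arntl rose by 0.33 ± 0.10 (log2 units ± SE; adjusted p = 0.0258 by limma). The call was lost without control replicate 1 (adjusted p = 0.0836 by limma) or control replicate 3 (0.0789) and with no filter on low values (0.0586). Leaving out the high DM-aKG replicate 1 gave Arntl a value of 0.21 log2 units, still called (adjusted p = 0.0198 by limma). Clock, which encodes the partner of BMAL1, stood at 9.56, 8.13 and 8.68 RPKM in control and at 10.28, 9.63 and 9.93 in DM-aKG. These groups did not overlap, but the gap between them was small, and the log2 fold change of 0.17 ± 0.06 missed the threshold (adjusted p = 0.0518 by limma). Clock was called under 5 of 17 alternatives, the replicate block among them (adjusted p = 0.0352 by limma). Summed, Arntl and Clock came to 14.9 ± 0.390 RPKM in control and 17.7 ± 1.49 under DM-aKG.

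The 3 Period genes, whose proteins inhibit the activating pair, moved in different directions. Per2 stood at 7.68, 6.83 and 7.11 RPKM in control and at 5.73, 4.01 and 4.38 in DM-aKG. All treated libraries were below the controls, replicate 1 the least. Per2 fell by 0.58 ± 0.12 (log2 units) (adjusted p = 0.00397 by limma), and 5.16% of tested genes fell further. Per3, the least abundant clock gene in control, stood at 3.10, 2.95 and 3.10 RPKM there and at 2.29, 2.01 and 2.23 in DM-aKG. Its controls agreed closely and its treated libraries lay well below them. Per3 fell by 0.41 ± 0.07 (log2 units) (adjusted p = 0.00207 by limma). Per1, which glucocorticoid and cAMP signals can induce at once, stood at 9.34, 10.31 and 9.36 RPKM in control and at 10.44, 12.14 and 12.31 in DM-aKG. Here the treated libraries were higher, although DM-aKG replicate 1 exceeded control replicate 2 only slightly. Per1 rose by 0.25 ± 0.07 (log2 units) (adjusted p = 0.0201 by limma). Leaving out control replicate 1 (adjusted p = 0.0674 by limma), control replicate 3 (0.0733), DM-aKG replicate 2 (0.0731) or DM-aKG replicate 3 (0.0714) ended the call, as did median centring (0.05001) and quantile normalization (0.0521). The summed level of the 3 genes was 19.9 ± 0.309 RPKM in control and 18.5 ± 0.383 in DM-aKG. Per1 made up 46.4% to 51.3% of this sum in control and 56.6% to 66.9% in the treated libraries, so the total changed less than its makeup.

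The Cryptochrome genes, which encode the other inhibitors of the loop, varied little. Cry1 was the most abundant clock gene in both groups, at 11.65, 11.50 and 10.26 RPKM in control and at 11.94, 11.57 and 12.18 in DM-aKG. Cry2 stood at 5.78, 6.90 and 6.12 RPKM in control and at 5.40, 6.05 and 5.76 in DM-aKG. The groups overlapped for both genes. The log2 fold change was 0.09 ± 0.06 for Cry1 (adjusted p = 0.204 by limma) and -0.12 ± 0.07 for Cry2 (adjusted p = 0.220 by limma). Their sum was 17.4 ± 1.01 RPKM in control and 17.6 ± 0.300 in DM-aKG. Cry1 was called only with array weights, which lower the influence of libraries that deviate from their group (adjusted p = 0.0318 by limma), and Cry2 under none of 17 alternatives.

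The REV-ERB genes, repressors of Arntl, differed from each other. Nr1d2 stood at 7.68, 6.83 and 7.38 RPKM in control and at 4.08, 3.85 and 3.90 in DM-aKG. The treated libraries lay close together and far below the controls. Nr1d2 fell by 0.81 ± 0.06 (log2 units) (adjusted p = 4.51e-05 by limma), the smallest p of the 10 genes, and 2.43% of tested genes fell further. Nr1d1 stood at 8.98, 10.43 and 9.10 RPKM in control and at 7.15, 10.39 and 10.38 in DM-aKG. DM-aKG replicate 1 was the lowest of all 6 libraries, while replicates 2 and 3 were level with the highest control. The log2 fold change of Nr1d1 was -0.04 ± 0.14 (adjusted p = 0.798 by limma). Without DM-aKG replicate 1 it was 0.12 (adjusted p = 0.145 by limma), and without both that library and control replicate 2 it was 0.19 and called higher (adjusted p = 0.00750 by limma). The direction of Nr1d1 therefore depended on single libraries. Nr1d1 shares 263 exonic bases (8.55% of its own) with Thra, the thyroid hormone receptor α gene on the opposite strand. Thra averaged 25.6 ± 1.35 RPKM in control and 23.3 ± 1.01 under DM-aKG (adjusted p = 0.0599 by limma). Whether the counting used strand is not given in the sources used here, so reads of the shared bases cannot be told apart.

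Dbp, the D-box activator, had the largest fold change of the 10. It stood at 4.03, 4.32 and 4.74 RPKM in control and at 2.12, 1.70 and 2.53 in DM-aKG. The highest treated library was well below the lowest control. Dbp fell by 0.90 ± 0.12 (log2 units) (adjusted p = 6.01e-04 by limma), and 1.94% of tested genes fell further. On the RPKM scale the treated mean was 0.485 of the control mean, since the pseudocount draws the log2 value of a low gene towards 0. Dbp shares 539 exonic bases, 18.0% of its exonic length, with Sphk2, the sphingosine kinase gene on the opposite strand. Sphk2 moved the other way, from 10.7 ± 0.449 to 17.1 ± 1.57 RPKM (log2 fold change 0.64 ± 0.07; adjusted p = 2.51e-04 by limma), and the part of its reads in the value of Dbp was not tested.

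Tef, a relative of Dbp that binds the same D-boxes, stood at 16.30, 15.07 and 16.64 RPKM in control and at 10.21, 9.85 and 9.57 in DM-aKG. It fell by 0.67 ± 0.05 (log2 units) (adjusted p = 5.82e-05 by limma), and was the more abundant of the D-box activators in every library. Hlf, the other relative, lay below the filter, with 0.147 ± 0.0404 RPKM in control and 0.0733 ± 0.0208 under DM-aKG. The sum of Dbp, Tef and Hlf was 20.5 ± 1.03 RPKM in control and 12.1 ± 0.392 in DM-aKG. Nfil3, which represses through D-boxes, was at 3.95, 6.80 and 4.17 RPKM in control and at 6.72, 6.07 and 5.71 in DM-aKG. Control replicate 2 of Nfil3 was above all treated libraries, and the gene did not pass (adjusted p = 0.158 by limma).

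**Figure D2:**
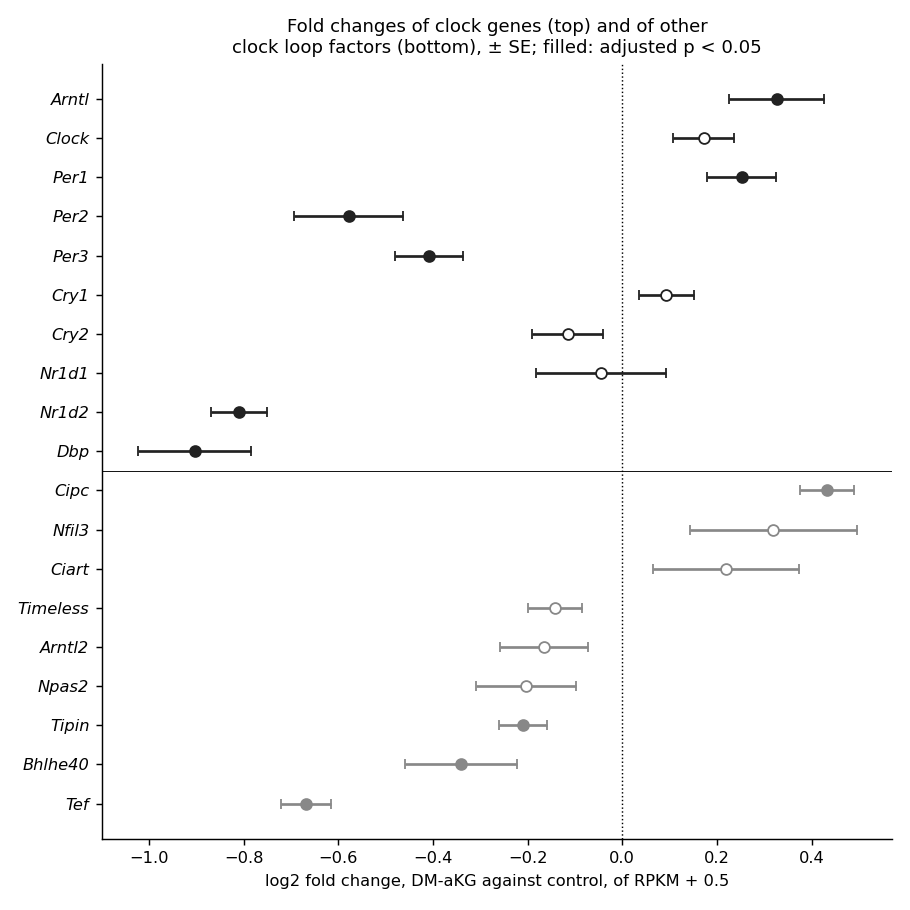
Log2 fold change between DM-aKG and control on the log2(RPKM + 0.5) scale (horizontal axis) with its SE. The 10 clock genes are above the line and the 9 tested genes of the list of other clock loop factors below it. Filled symbols passed an adjusted p under 0.05. Dbp, Nr1d2, Tef, Per2 and Per3 form the left end, and Cipc and Arntl have the largest values on the right.

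Ordered by level, the control libraries ran from Cry1 (11.1 RPKM) through Per1, Nr1d1, Clock, Nr1d2, Per2, Cry2 and Arntl to Dbp and Per3 (3.05 RPKM). Neighbours in this order were separated beyond their ranges at 3 steps only: Clock above Nr1d2, Arntl above Dbp, and Dbp above Per3. In DM-aKG the order was Cry1 (11.9 RPKM), Per1, Clock, Nr1d1, Arntl, Cry2, Per2, Nr1d2, Per3 and Dbp (2.12 RPKM), with separation of Per1 from Clock, Arntl from Cry2, and Nr1d2 from Per3. Arntl thus stood below Nr1d2 and Per2 in the controls and above both in the treated libraries, without overlap in either group. Dbp and Per3, which did not overlap in control, overlapped in DM-aKG.

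Ratios within a library, computed on RPKM + 0.5, hardly depend on how libraries were scaled. The log2 ratio of Per1 to Per2 was 0.267, 0.560 and 0.374 in control and 0.812, 1.487 and 1.392 in DM-aKG, a difference of 0.83. That of Nr1d1 to Nr1d2 was 0.213, 0.576 and 0.285 in control and 0.740, 1.324 and 1.306 in DM-aKG, a difference of 0.77. Both pairs of paralogs separated the groups, with DM-aKG replicate 1 nearest to the controls. The ratio of Arntl to its paralog Arntl2 differed by 0.49 and that of Clock to its paralog Npas2 by 0.38, again without overlap. Without control replicate 2, where Npas2 was highest, the difference of Clock to Npas2 was 0.19. For each of these 4 pairs the exact permutation test gave p = 0.10 (two-sided, adjusted p = 0.125 over 5 pairs), the smallest p that 3 against 3 libraries allow. The ratio of Cry1 to Cry2 differed by 0.21 with overlapping groups (exact permutation test, p = 0.20, adjusted p = 0.20).

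Opposite arms of the loop were compared as values, with no test. The log2 ratio of Arntl to Dbp was 0.462, 0.540 and 0.295 in control and 1.881, 1.785 and 1.323 in DM-aKG. All treated libraries were higher, by 1.23 on average. The log2 ratio of Arntl to Nr1d1 was -0.603, -0.641 and -0.578 in control and 0.335, -0.523 and -0.521 in DM-aKG. DM-aKG replicates 2 and 3 lay just above the controls, and the mean difference of 0.37 came mostly from replicate 1, the only library with more Arntl than Nr1d1. That library combined the highest Arntl, the lowest Nr1d1 and Cry2, and, among the treated libraries, the highest Per2 and the lowest Per1.

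**Figure D3:**
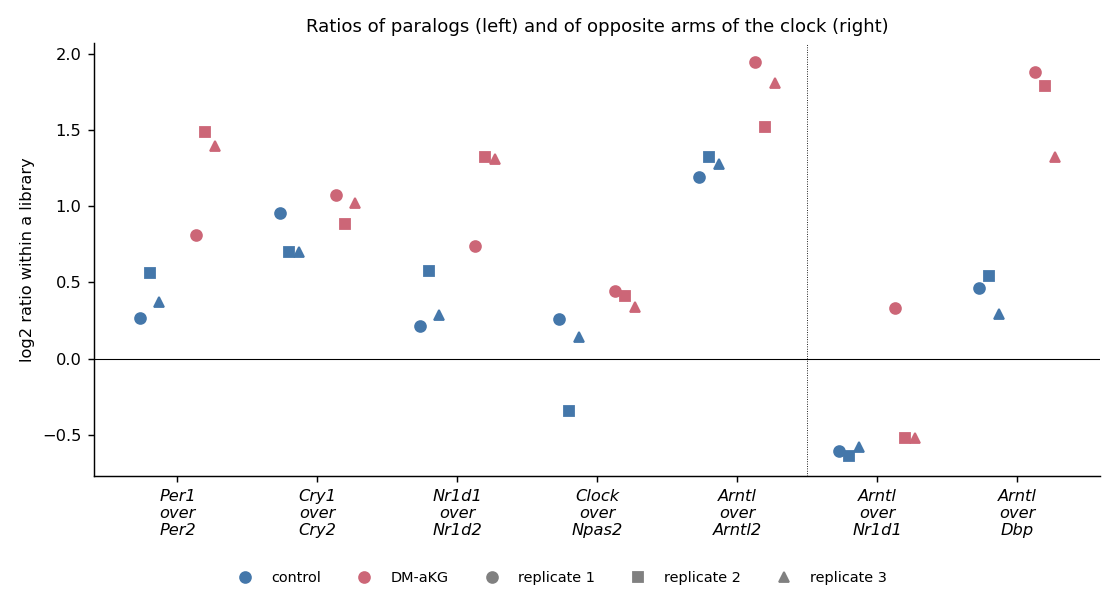
Log2 ratio of 2 genes within each library (vertical axis) for 5 pairs of paralogs and, right of the dotted line, 2 pairs of opposite arms of the clock; blue marks control, red DM-aKG, and symbols mark replicates. The groups are apart for each pair other than Cry1 over Cry2, and Arntl over Nr1d1 exceeds 0 in DM-aKG replicate 1 alone.

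Compared with all tested genes, the 4 clock genes that fell lay towards the lower end of the distribution and the 2 that rose did not stand far out. For Per3, 9.91% of tested genes fell further. Larger rises than those of Arntl and Per1 were found in 17.0% and 22.2% of tested genes.

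**Figure D4:**
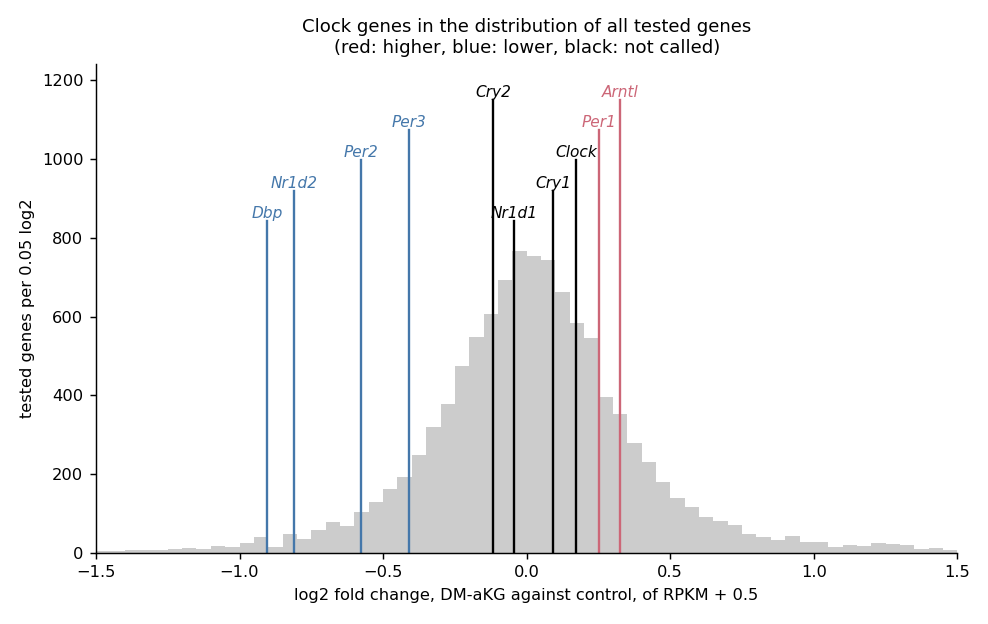
Number of tested genes (vertical axis) by log2 fold change between DM-aKG and control in steps of 0.05 (horizontal axis), with the clock genes as vertical lines whose height carries no value; 176 genes beyond ±1.5 are not drawn. Dbp at -0.90 and Nr1d2 at -0.81 lie in the lower tail, while Nr1d1, Cry1, Cry2 and Clock lie within the central mass.

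Other factors of the loop were read from a list of 13 genes. Of 9 tested, 1 was higher, 3 lower and 5 not called, with a median log2 fold change of -0.17. The called genes are 44.4% of those tested, beside 55.6% of all tested genes. Besides Tef, the lower genes were Tipin, which encodes the partner of TIMELESS at replication forks (11.3 ± 0.601 to 9.71 ± 0.151 RPKM; adjusted p = 0.00908 by limma), and Bhlhe40, which encodes the E-box repressor DEC1. Bhlhe40 stood at 63.65, 87.81 and 64.73 RPKM in control and at 59.87, 53.32 and 55.50 in DM-aKG (adjusted p = 0.0399 by limma). Control replicate 2 was the highest library, and the call of Bhlhe40 was lost without DM-aKG replicate 2 (adjusted p = 0.118 by limma) or 3 (0.0948), with no filter (0.0851), with equal RPKM sums (0.0530), without a variance trend (0.0538) and with the replicate block (0.0566). Cipc, which encodes an inhibitor that binds CLOCK, was the member that rose, from 7.97 ± 0.375 to 10.9 ± 0.588 RPKM (adjusted p = 6.02e-04 by limma). Npas2, a paralog of Clock, was at 7.91, 10.46 and 7.80 RPKM in control and at 7.44, 7.13 and 7.76 in DM-aKG (adjusted p = 0.135 by limma), and it too was highest in control replicate 2. Rora, Rorb, Hlf and Bhlhe41 lay below the filter, none with a mean above 0.147 RPKM in either group.

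Enzymes that mark clock proteins for activity or decay gave 5 higher and 1 lower of 15 tested, with a median log2 fold change of 0.09. This is 40.0%, beside 55.6% of all tested genes. Prkaa2, a catalytic subunit of the energy sensor AMPK, which can phosphorylate CRY1, rose from 9.60 ± 0.558 to 15.9 ± 0.560 RPKM (adjusted p = 5.93e-05 by limma). The ubiquitin ligase gene Huwe1 rose from 23.8 ± 1.22 to 34.3 ± 1.27 RPKM (adjusted p = 1.58e-04 by limma). Fbxw11, a ligase subunit that recognises PER proteins, rose from 17.3 ± 0.633 to 19.4 ± 0.0635 RPKM (adjusted p = 0.0125 by limma), a call lost under quantile normalization (0.0828) and without control replicate 3 (0.0596). Btrc, the 1 lower gene of this list, went the other way, from 1.72 ± 0.167 to 1.34 ± 0.0529 RPKM (adjusted p = 0.0334 by limma). Among coactivators and corepressors 3 were higher and 7 lower of 15 tested (66.7%, beside 55.6% of all tested genes), with a median of -0.13. Ncor1, the corepressor that REV-ERB proteins recruit, rose from 25.6 ± 0.410 to 32.6 ± 0.350 RPKM (adjusted p = 2.25e-04 by limma), and the acetyltransferase gene Ep300 rose from 11.9 ± 0.277 to 14.9 ± 0.561 RPKM. The deacetylase gene Hdac1 fell from 34.9 ± 0.663 to 27.8 ± 2.23 RPKM (adjusted p = 0.00247 by limma). Hdac3, also a deacetylase gene, fell from 41.2 ± 1.39 to 36.2 ± 0.774 RPKM (adjusted p = 0.00663 by limma).

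Among 13 tested genes known to cycle in other tissues, 5 were higher and 2 lower, with a median of 0.17. This is 53.8%, near the 55.6% of all tested genes. Alas1, the rate-limiting enzyme of haem synthesis, rose from 22.0 ± 1.27 to 40.3 ± 1.06 RPKM (adjusted p = 1.63e-05 by limma), and the tetraspanin gene Tspan4 rose from 1.73 ± 0.273 to 3.77 ± 0.286 RPKM. Cdkn1a, which encodes p21 and is also a p53 target, rose from 64.4 ± 7.35 to 167 ± 33.9 RPKM. Genes of the acute signals that can induce Per1 were called in 11 of 12 tested cases (91.7%), beside 55.6% of all tested genes. Dusp1 was not called (adjusted p = 0.598 by limma), and the list was chosen with earlier results of these data known. The calls went both ways, 6 higher and 5 lower, with a median of 0.17 over the 12. Fkbp5, a glucocorticoid receptor target, stood at 17.41, 13.39 and 14.89 RPKM in control and at 30.99, 41.92 and 40.04 in DM-aKG (adjusted p = 1.74e-04 by limma). The immediate early gene Fos rose from 5.10 ± 0.551 to 13.0 ± 2.43 RPKM (adjusted p = 2.29e-04 by limma), and Nr4a1, a nuclear receptor gene induced by cAMP and serum, from 1.64 ± 0.306 to 3.48 ± 0.360 RPKM. In Fkbp5, Fos, Nr4a1 and Per1 alike, DM-aKG replicate 1 was the lowest of the treated libraries. This order was not particular to them: Krt8, Krt18, Krt19, Cdkn1a and Sphk2 also rose with replicate 1 lowest. Arntl and Huwe1 rose with replicate 1 highest. The glucocorticoid receptor gene Nr3c1, the cAMP response gene Creb1 and its coactivator genes Crtc1 and Crtc2 were among the 5 lower genes, with log2 fold changes of -0.22, -0.26, -0.21 and -0.15; the remaining one was Nr4a2, whose groups overlapped. These names outside the lowest p-values of the list were chosen after their values were seen.

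The genes most like Arntl, Nr1d1 and Dbp were found by Pearson's r of log2(RPKM + 0.5) over the 6 libraries, which share the contrast of treatment, and are given as a description. Iqgap3 (r = 0.994), Ube2c (0.993) and Sass6 (0.993) were most like Arntl. Zfp691 (r = 0.992), Slc38a1 (0.983) and Hgfac (0.976) were most like Nr1d1, with the same low value in DM-aKG replicate 1. Fam189b (r = 0.999), Ints5 (0.997) and Cited2 (0.997) were most like Dbp. None of these 9 is itself a gene of the clock lists.

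Across 17 alternative settings, the falls of Per2, Nr1d2 and Dbp were called in all 17, and that of Per3 in the 16 in which it was tested. Their log2 fold changes ranged from -0.75 to -0.48 (Per2), -0.88 to -0.75 (Nr1d2), -1.02 to -0.78 (Dbp) and -0.47 to -0.35 (Per3). The rise of Arntl was called in 14 of 17 settings and that of Per1 in 11, with positive values throughout (0.21 to 0.38 for Arntl and 0.20 to 0.37 for Per1).

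**Figure D5:**
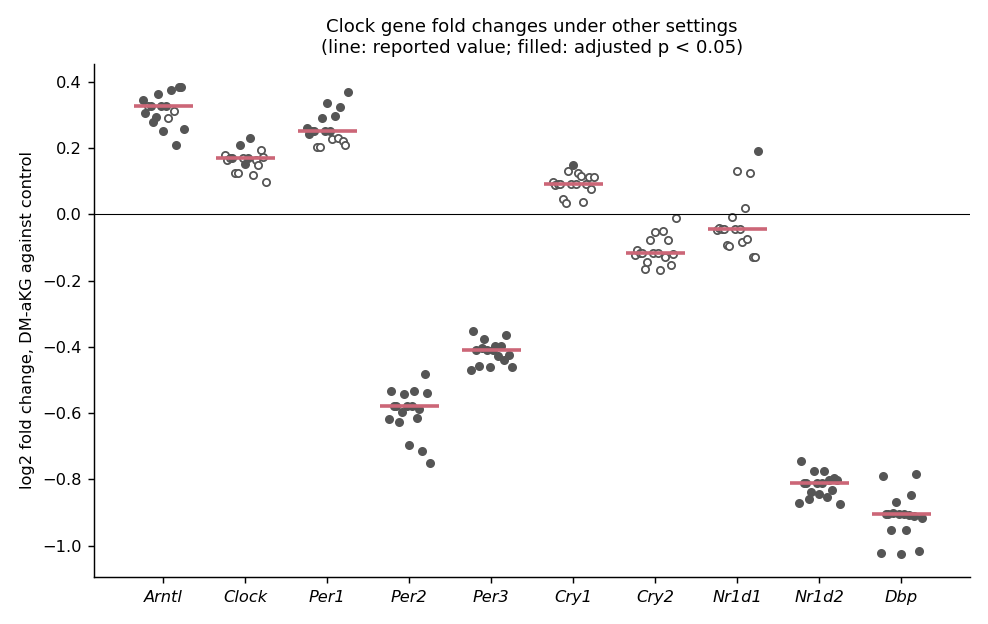
Log2 fold change of each clock gene (vertical axis) as reported (line) and under up to 17 other settings (points); filled points passed an adjusted p under 0.05. The values of Per2, Per3, Nr1d2 and Dbp stay below -0.35 and filled, those of Per1 and Arntl are in part unfilled, and those of Nr1d1 lie on both sides of 0.

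On the mouse assembly GRCm38 (GENCODE M21), Dbp lies on chromosome 7, 45705088 to 45710203 (plus strand), and Arntl on the same chromosome, 113207465 to 113314126 (plus strand). Per1 and Nr1d1 both lie on chromosome 11, at 69095217 to 69109960 (plus strand) and 98767932 to 98775333 (minus strand). Per2 lies on chromosome 1, 91415982 to 91459324, Per3 on chromosome 4, 151003652 to 151044665, and Nr1d2 on chromosome 14, 18204054 to 18239127, all on the minus strand. Also on the minus strand are Cry1 on chromosome 10, 85131700 to 85185064, Cry2 on chromosome 2, 92403646 to 92434043, and Clock on chromosome 5, 76209868 to 76304792. All 10 are annotated as protein-coding genes, and their values cover whole genes without separating transcripts.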

How the data were processed

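The authors deposited 1 table of RPKM, with 2 decimals, for 24956 genes in 3 control and 3 DM-aKG libraries of total RNA. The submitters' processing notes name the build mm10 with CASAVA 1.8, HISAT2 2.0.4 and Partek; tool roles, annotation, strand and multiply mapped reads: not given in the sources used here. Columns were matched to samples by title.

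Values were tested as log2(RPKM + 0.5) with limma 3.58.1 (R 4.3.3; lmFit, eBayes with trend, two-sided, no replicate term) over 10852 genes with a mean of at least 1 RPKM; 14104 were below it. All 10 clock genes passed. P-values were adjusted by Benjamini-Hochberg over all tested genes, with calls under 0.05. Ratios used exact permutation tests (scipy 1.17.1). The procedure was tested on simulated data in which 10652 of 10852 genes were unchanged, unlike the share called here. It called 2 of the unchanged genes, 22% of changes of 0.25 log2 units and 76% of changes of 0.5. Small changes can thus go uncalled. Depth was estimated from RPKM steps of snoRNA and miRNA genes up to 150 bases long, where 83.3% to 94.1% of other low values were whole within 0.05 reads, and covers counting error only.

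The clock genes, lists and tests were chosen with earlier results of these data known. Named were the 10 genes, up to 3 of each list by smallest p, and the 3 most correlated with each of Arntl, Nr1d1 and Dbp; others were chosen after their values were seen. A gene of the clock lists is not reported here. Alternatives covered pseudocount, filter, scaling, variance model, weights, replicate block and left-out libraries.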

Additional observations from a re-analysis of the deposited data

How the results depend on the processing

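The number of clock genes called lower was 4 under each alternative other than a filter at a mean of 3 RPKM, which removed Per3 and left 3. The number called higher, 2 as reported, was 1 with no filter, 1 under median centring, 1 under quantile normalization, 3 with equal RPKM sums, 3 with the filter at 3 RPKM and 4 with array weights, and leaving out libraries gave 0 (without control replicate 3) to 3. The counts of all genes called ranged from 2699 to 3721 higher and 2049 to 3270 lower as libraries were left out. Nr1d1 changed direction to 0.13 with array weights and to 0.19 without control replicate 2 and DM-aKG replicate 1 together, and ranged from -0.13 to 0.12 with single libraries left out. The cause was not tested. Of genes likest to Nr1d1, none called as reported, Slc38a1 changed sign to -0.028 and Hgfac to -0.029 under median centring. Under quantile normalization Slc38a1 was at -0.013, Hgfac at -0.058 and Zfp691 at 0.0089. Zfp691 was at 0.021 with equal RPKM sums, 0.080 with array weights and 0.12 without control replicate 2 and DM-aKG replicate 1. With single libraries left out, Slc38a1 ranged from -0.074 to 0.19, Hgfac from -0.056 to 0.15 and Zfp691 from -0.055 to 0.076; Slc38a1 was at 0.26 and Hgfac at 0.19 with both of those libraries left out.

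Same-numbered control and DM-aKG libraries did not deviate together (correlations of -0.083, -0.114 and 0.011). With 3 libraries per group, these values cannot decide whether the numbers pair the samples. With the replicate block 3 clock genes were called higher and 4 lower, Clock being the addition, and 3206 genes higher and 2542 lower in all. The paralog ratios kept their direction under both other pseudocounts and each omission, that of Clock to Npas2 between 0.17 and 0.50. At the estimated depth and with exon lengths from GENCODE, the counting error was put at 7.72% in the lowest Dbp library. This was below the spread of Dbp between treated libraries.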
